A study of Mus musculus with 7 samples.

Results

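Genes that clear amyloid-β peptide from the brain, or that carry inherited risk of Alzheimer's disease, were followed in the cortex of APP/PS1 mice. The 10 genes were Mme, Ide, Ece1, Ece2, Apoe, Clu, Lrp1, Sorl1, Bin1 and Picalm, taken by symbol from the 23413 symbols in the count tables. They were picked with earlier results of the same diet comparison known, so their differences between diets are given as a description and without a test. All 10 passed the filter on low counts.

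RNA-seq was done on 7 cortices from mice carrying the APPswe and PSEN1dE9 transgenes, which code for mutant human amyloid precursor protein and mutant human presenilin and are driven by a mouse prion promoter. From 6 months of age 4 mice ate a control diet (CD, called SD in the sample labels), with 74% of energy from carbohydrate and 16% from fat, and 3 mice ate a ketogenic diet (KD), with under 0.5% from carbohydrate and 90% from fat. Both diets held 10% protein, and the mice were caged singly and killed at 13 months, after 7 months on the diet. Each library came from 1 mouse, both groups carried both transgenes and no wild-type cortex was among the libraries, so the values describe diet within the model and not the model against normal brain. The labels do not give the sex of the mice. Xist, the transcript of the silenced X chromosome, was at 242 to 526 CPM (counts scaled to a common library total) in CD replicates 1 and 2 and KD replicates 1 and 2, and at 0.314 to 3.08 CPM in the other 3 libraries. Ddx3y, a transcript of the Y chromosome, was at 301 to 346 CPM in those 3 libraries and at 0.0428 to 0.301 CPM in the rest. By these transcripts replicates 1 and 2 of both diets were female, and CD replicates 3 and 4 and KD replicate 3 male.

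Amyloid-β is cut from its precursor at neuronal membranes and leaves the tissue by several routes. Metalloproteases such as neprilysin and the insulin-degrading enzyme break it down. Apolipoproteins made mostly by astrocytes bind it, and receptors on neurons, glia and vessels take it up. Endocytic adaptors and sorting receptors decide how long its precursor stays in compartments where the cutting occurs, and many of the human risk loci for late-onset disease lie in genes of these last groups.

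Library totals ran from 22272883 to 36614954 counts. Libraries differed in marker RNA. Summed over the 10 genes of an olfactory bulb list, CD replicate 4 and KD replicate 3 held 297 and 225 CPM, against 39.3 to 76.0 in the rest. In CD replicate 4 all 10 were above each of CD replicates 1 to 3. In KD replicate 3 the largest parts were Slc17a6 (103 CPM), Calb2 (49.2 CPM) and Trh (44.1 CPM). There Cdhr1, Sp8 and Dlx1 were also above each of CD replicates 1 to 3, whereas Eomes, Tbx21, Doc2g and Th were not. CD replicate 3 and KD replicate 3 held less oligodendrocyte RNA (1285 and 1314 CPM over 12 genes, against 2431 to 4808). CD replicates 3 and 4 and KD replicate 3 were all male by Xist and Ddx3y. The cortical excitatory markers, led by Camk2a and Slc17a7, were present in every library, at a sum of 1495 to 2126 CPM over 12 genes. With edgeR's quasi-likelihood test over 15881 genes, the raw p was 0.01 or less for 51 genes (0.321%), or 182 when replicate number entered as a block, and under 0.05 for 506 (3.19%). After Benjamini-Hochberg adjustment 0 genes were under 0.05, with or without the block and in DESeq2, and the 10 genes are among those that did not pass. The median log2 fold change over all genes was -0.00329.

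The 10 genes spanned a wide range of levels. Per kilobase of annotated exon, Apoe was highest, with 320 ± 51.3 CPM per kb in CD (SD, n = 4) and 302 ± 35.1 in KD (SD, n = 3). Clu followed with 158 ± 27.5 in CD, then Sorl1 with 45.4 ± 7.04, Bin1 with 38.9 ± 2.72 and Lrp1 with 28.6 ± 2.40 CPM per kb. Picalm (16.5 ± 0.584), Ide (15.8 ± 3.37), Ece1 (9.14 ± 0.583) and Ece2 (4.04 ± 1.09) came next, and Mme was lowest with 0.867 ± 0.136 CPM per kb in CD and 0.547 ± 0.0154 in KD. The order of group means was the same on both diets. The lipid carriers had the highest means and the proteases the 4 lowest. In both diets the library ranges of Sorl1 and Bin1 overlapped, as did those of Picalm and Ide, so these neighbours cannot be ordered. In KD alone the ranges of Ide and Ece1, and of Ece1 and Ece2, overlapped too. The lengths are exon unions of GENCODE M21, which need not be the annotation the reads were counted on, so the order is approximate.

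**Figure D1:**
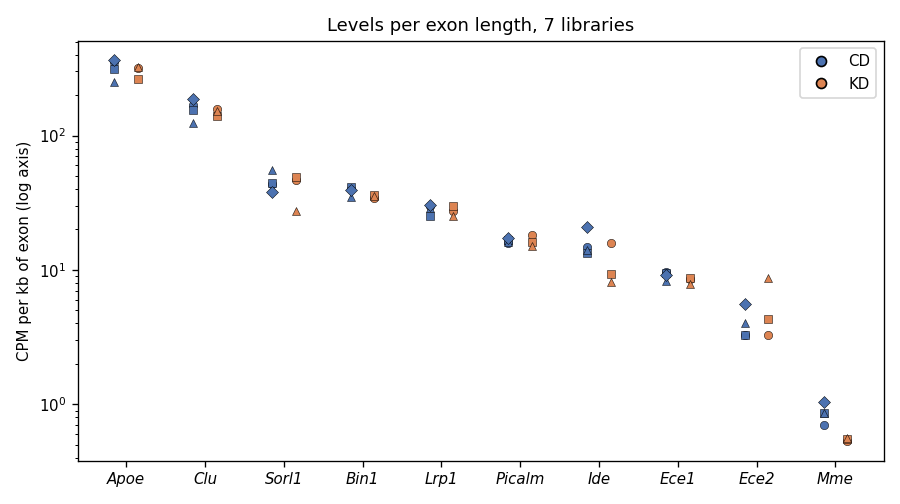
Level of each gene per kilobase of exon (CPM per kb, log axis), with 1 point per library, CD in blue and KD in orange, and the marker shape giving the replicate as in the plot of CPM by library. Apoe lies at 251 to 367 CPM per kb in the CD libraries and Mme at 0.704 to 1.04.

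Of the proteases, Mme codes for neprilysin, a zinc endopeptidase of the cell surface that is among the main amyloid-β degrading enzymes in brain. The gene lies on the plus strand at chr3:63241537-63386030 (mm10, GENCODE M21), and no other annotated gene overlaps it. It was measured with 285, 296, 329 and 438 counts in CD replicates 1 to 4 and with 143, 216 and 144 counts in KD replicates 1 to 3. As CPM these were 8.12, 9.90, 10.0 and 12.0 in CD and 6.12, 6.35 and 6.47 in KD. Every KD library lay under every CD library, and the KD libraries were closer to each other than their counting error, which was 6.80% to 8.36% per library against a coefficient of variation of 2.82%. The mean was 10.0 ± 1.57 CPM in CD (SD, n = 4) and 6.31 ± 0.178 CPM in KD (SD, n = 3), a ratio of 0.631. The fitted log2 fold change was -0.65 (SE 0.15), and it stayed between -0.74 and -0.57 in all 16 alternative fits, those without each library in turn among them. By its raw p Mme ranked 8 of 15881. Among the 10 it alone was lower in KD with a raw p of 0.01 or less, against 0.17% of all genes (0.151% were higher). Its diets alone did not overlap, against 4.2% of all genes, 2.56% with KD lower and 1.64% with KD higher. Since Mme was chosen from this contrast, nothing is read from those counts.

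The 250 bases before the most upstream RefSeq start of Mme (GRCm38.p6, plus strand, chr3:63294961-63295210) are shown as a description of the gene. Mme was taken because it alone of the 10 did not overlap between diets, and the stretch is not a test of that difference. Capitals mark the GC box letters GGGCGG, searched on both strands.

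Mme: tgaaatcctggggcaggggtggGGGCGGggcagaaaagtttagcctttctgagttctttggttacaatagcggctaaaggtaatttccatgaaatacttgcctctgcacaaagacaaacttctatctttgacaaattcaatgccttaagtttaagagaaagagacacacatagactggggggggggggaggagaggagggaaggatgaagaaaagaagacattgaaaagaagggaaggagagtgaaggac

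The stretch has 45.6% G and C. It holds 1 GC box, which ends 222 bases before the start, and 33.0% of 32536 RefSeq promoter stretches of the same length hold at least 1. It holds neither the cAMP response element TGACGTCA (in 1.56% of the stretches) nor its shorter core TGACG (17.9%), to which CREB is known to bind. The stretches before the other RefSeq starts of Mme lie over annotated exon, and GENCODE M21 places the first exon of the gene farther upstream. A match or its lack is only a statement on the letters in this window.

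Several marker lists had mostly lower fitted values in KD, as Mme did. By the mean over the parvalbumin interneuron list, CD replicate 1 was highest and KD replicate 3 lowest. Mme was lowest of CD in CD replicate 1 and highest of KD in KD replicate 3. The sum over 12 parvalbumin interneuron markers, led by Gad1 and Cplx1, was 1418 to 1753 CPM in CD and 1122 to 1334 CPM in KD, so that the diets did not overlap there either. In the fit across all genes 10 of the 12 had a log2 fold change below 0, where 49% of all tested genes were above 0. Syt2, Kcnc1, Gad1, Kcns3 and Cplx1 had a raw p under 0.05, all lower in KD. Of all genes 1.52% were lower at that threshold, and 3.19% passed it in either direction. Gene by gene, 4 of the 12 (Syt2, Kcnc1, Gad1 and Kcns3) did not overlap between diets, against 4.2% of all genes. Pvalb itself overlapped, with 67.3 CPM in CD replicate 3 and 67.9 CPM in KD replicate 2, and so did Kcnc2 and Erbb4. Other members did not fall alike: Tac1 (35.5 CPM) and Lhx6 (20.6 CPM) were highest of all libraries in KD replicate 3. In bulk tissue fewer cells of a type and less RNA per cell cannot be told apart. The sum over 12 meningeal fibroblast markers, led by Dcn and Igf2, was 73.5 to 449 CPM in CD and 66.2 to 204 CPM in KD, and all 12 had a log2 fold change below 0 without passing a raw p of 0.05. The sum over 12 endothelial and mural markers, led by Slco1a4 and Vtn, was 286 to 534 CPM in CD and 300 to 342 CPM in KD. CD replicate 4, with the most Mme, was also highest in the meningeal and the vascular list. The meningeal sum was 133 to 449 CPM in the libraries male by Xist and Ddx3y and 66.2 to 80.0 CPM in the rest. Without CD replicate 4 the log2 fold change of Mme was -0.57. The part of these lists in the Mme values was not tested.

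The genes most like Mme across the 7 libraries were searched among 14139 genes with a mean of at least 1 CPM, by the root mean square difference of centred log2(CPM + 0.5). The closest were Mybpc1 (0.12), Ifi30 (0.13), Aard (0.146), Lysmd1 (0.151) and Marveld1 (0.157), where the SD of Mme itself was 0.363. Mybpc1, a myosin-binding protein, had 11.5, 13.7, 12.5 and 18.9 CPM in the CD libraries and 10.1, 9.35 and 10.1 CPM in KD. All 5 thus share the low KD values and the peak or near-peak in CD replicate 4. The points share libraries and depth, and the likeness is a description.

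Ide codes for the insulin-degrading enzyme, a zinc protease that cuts insulin and amyloid-β in the cytosol and outside the cell. It lies on the minus strand at chr19:37268743-37337852. It had 111, 100.2, 106 and 156 CPM in CD replicates 1 to 4 and 119, 70.4 and 61.3 CPM in KD replicates 1 to 3. KD replicates 2 and 3 lay under all CD libraries and KD replicate 1 lay above 3 of the 4, so the diets overlapped. The means were 118 ± 25.3 CPM in CD and 83.7 ± 31.3 CPM in KD, a log2 fold change of -0.48 (SE 0.24). The value depended on single libraries: it was -0.83 without KD replicate 1, -0.29 without KD replicate 3 and -0.34 without CD replicate 4. Without CD replicate 4 and KD replicate 3 together it was -0.15.

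Ece1 and Ece2 code for endothelin-converting enzymes, membrane metalloproteases of the neprilysin family that degrade amyloid-β inside the cell. Ece1 (chr4:137862237-137965229, plus strand) had 50.8, 50.4, 44.0 and 48.6 CPM in CD and 45.7, 46.4 and 41.7 CPM in KD. Its diets overlapped only through CD replicate 3, and its log2 fold change was -0.11 (SE 0.09). Ece2 (chr16:20629828-20646485, plus strand) had 16.6, 16.8, 20.7 and 28.5 CPM in CD and 16.6, 22.0 and 44.3 CPM in KD. Here 1 library stood out, KD replicate 3, with 986 counts against 389 and 747 in the other KD libraries. The log2 fold change of Ece2 was 0.43 (SE 0.32) with all libraries and -0.07 without KD replicate 3. Of the exon length of Ece2, 57.5% is shared with Gm49333, a protein-coding gene on the same strand, and RefSeq also lists a read-through gene joining Eef1akmt4 to Ece2, so the reads of the shared exons cannot be told apart.

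The proteases therefore did not share a pattern. CD replicate 4 was highest in CD for Mme, Ide and Ece2. KD replicate 3 was lowest of all libraries for Ide and Ece1 and highest of all for Ece2, and it held more striatal marker RNA (389 CPM summed over 9 genes, Pde10a among them) than any other library, where the others held 213 to 276 CPM. The part of tissue content in these values was not tested.

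**Figure D2:**
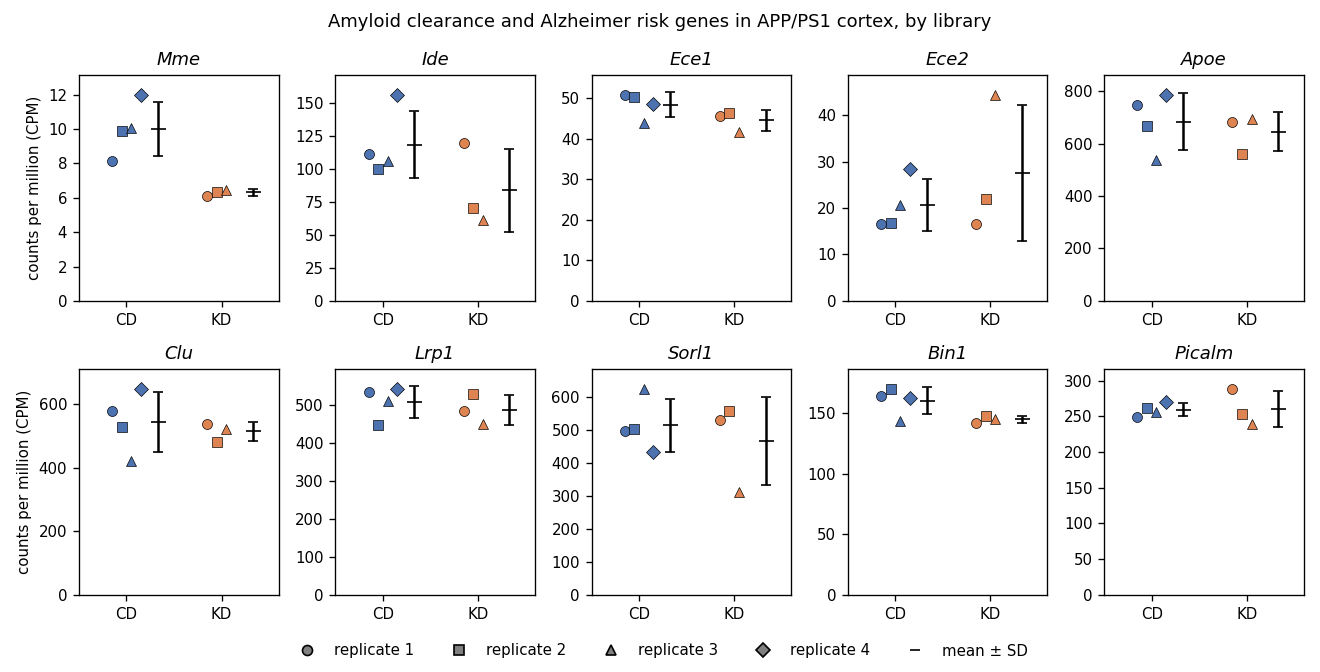
Level of each of the 10 genes in every library (CPM, linear axes from 0), CD in blue and KD in orange, marker shape for the replicate number, and the black dash and bar for the group mean and SD. The KD points of Mme, 6.12 to 6.47 CPM, lie under all its CD points, 8.12 to 12.0 CPM, and the diets of the other 9 genes overlap.

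Apoe and Clu, the ligands, code for apolipoprotein E, the main lipid carrier of the brain and the strongest common risk locus for late-onset disease, and clusterin, a secreted chaperone that binds amyloid-β. Apoe (chr7:19696109-19699188, minus strand) had 748, 666, 536 and 784 CPM in CD and 684, 560 and 694 CPM in KD. Clu (chr14:65968483-65981547, plus strand) had 578, 529, 423 and 647 CPM in CD and 539, 483 and 523 CPM in KD. In both genes all KD libraries lay within the CD range, CD replicate 3 was lowest and CD replicate 4 highest. The log2 fold change was -0.07 (SE 0.14) for Apoe and -0.07 (SE 0.13) for Clu. These were the genes with the most counts of the 10, and their counting error, at most 0.927% per library, was far under the spread between mice, a coefficient of variation of 16.1% for Apoe and 17.4% for Clu in CD. The sum over 12 astrocyte markers, led by Slc1a2 and Aldoc, was 5919 to 6827 CPM in CD, lowest in CD replicate 3, and 5478 to 8051 CPM in KD.

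Lrp1 codes for a large endocytic receptor that takes up Apoe and amyloid-β in neurons, glia and vessel walls. The gene (chr10:127538161-127621148, minus strand) had 533, 447, 509 and 540 CPM in CD and 483, 529 and 449 CPM in KD. The diets overlapped almost completely, with means of 507 ± 42.4 and 487 ± 39.8 CPM and a log2 fold change of -0.05 (SE 0.10).

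Sorl1 codes for a sorting receptor that, with the retromer complex, returns the amyloid precursor protein from endosomes to the Golgi. The gene (chr9:41964720-42124297, minus strand) had 498, 502, 624 and 433 CPM in CD and 531, 558 and 313 CPM in KD. KD replicate 3 lay under all other libraries, and the other KD libraries lay within the CD range. The log2 fold change was -0.12 (SE 0.22), and 0.10 without KD replicate 3. An antisense gene, Gm16214, covers 1.63% of its exon length, and the strand setting of the counting is not given in the sources used here.

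The 250 bases before the outer RefSeq start of Sorl1 (GRCm38.p6, minus strand, chr9:42124298-42124547) are shown next to those of Mme because, of the 15 stretches found in the RefSeq table for Mme, Ide, Ece1, Ece2, Apoe, Lrp1 and Sorl1, it was the only one with the core TGACG. Capitals mark TGACG and the GC box GGGCGG, on both strands.

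Sorl1: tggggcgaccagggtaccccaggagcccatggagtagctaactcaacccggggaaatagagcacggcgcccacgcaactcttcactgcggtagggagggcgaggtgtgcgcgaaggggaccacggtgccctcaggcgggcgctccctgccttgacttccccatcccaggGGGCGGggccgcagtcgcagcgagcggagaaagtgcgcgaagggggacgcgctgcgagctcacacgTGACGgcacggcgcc

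The core TGACG ends 10 bases before the start and the GC box 75 bases before it. The stretch has 69.6% G and C, against 45.6% in that of Mme. Picalm, the other gene with a match, held 2 of these cores, and its stretch lies over an exon of a neighbouring gene. Of 32536 RefSeq promoter stretches 17.9% hold the core TGACG, and no excess is read from these matches. Clu and Bin1 had no entry.

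The adaptors varied little. Bin1, which codes for a membrane-bending protein of endosomes and T-tubules and is a common risk locus, had 164, 169, 144 and 162 CPM in CD and 142, 147 and 145 CPM in KD (chr18:32377230-32435737, plus strand). KD lay under 3 of the 4 CD libraries and overlapped with CD replicate 3. The log2 fold change was -0.14 (SE 0.08), with a value of -0.18 when CD replicate 3 was left out and -0.09 when CD replicate 2 was. Oligodendrocytes are among the cells known to express Bin1. All 12 oligodendrocyte markers had a log2 fold change below 0, as Bin1 and Mme did, with a median of -0.40 and 0 at a raw p under 0.05, and their sum was 1285 to 4808 CPM in CD and 1314 to 4757 CPM in KD. The part of this list in the Bin1 and Mme values was not tested. CD replicate 3 was lowest in CD for Bin1 and for the oligodendrocyte list, which holds Mbp, whereas KD replicate 1 had the least Bin1 and 4757 CPM of the oligodendrocyte list. The antisense gene A830052D11Rik shares 6.22% of the exon length of Bin1 and had at most 60 counts in any library.

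Picalm codes for a clathrin assembly protein that recruits clathrin and cargo to the membrane. It had 249, 262, 256 and 270 CPM in CD and 288, 253 and 239 CPM in KD (chr7:90130213-90213465, plus strand). The means, 259 ± 9.18 CPM in CD and 260 ± 25.2 CPM in KD, gave a log2 fold change of 0.01 (SE 0.09). Picalm varied least of the 10 genes, with an SD of 0.0872 on the log2 scale over the 7 libraries, under that of all but 9.22% of the tested genes. At the other end 91.3% of the tested genes had a smaller SD than Ece2 (0.513), 88.2% than Ide (0.456), 80.3% than Mme (0.363) and 74.6% than Sorl1 (0.321).

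Over the 10 genes the median log2 fold change was -0.09. It was below 0 for 8 genes and above 0 for Ece2 and Picalm, where 49% of all tested genes were above 0. Without CD replicate 4 and KD replicate 3 together, 5 were below and 5 above 0. Mme, Ide, Ece1 and Bin1 were below 0 in every one of the 16 alternative fits, and the other 6 changed sign in at least 1. The size was under 0.2 for 7 of the 10, all but Mme, Ide and Ece2.

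**Figure D3:**
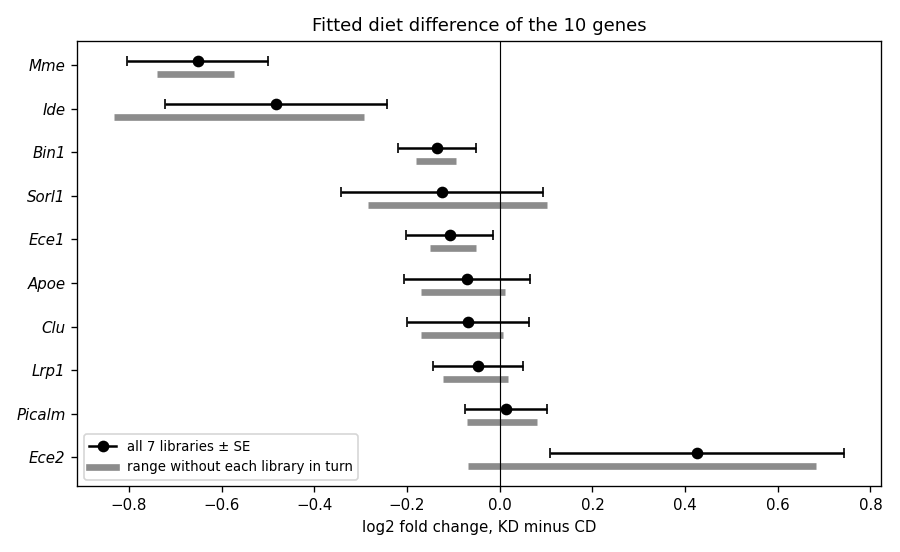
Fitted log2 fold change of each gene, KD minus CD, with the standard error (black), and the range over the 7 fits that each leave out 1 library (grey). Mme lies at -0.65 with a range of -0.74 to -0.57, whereas the ranges of Sorl1, Apoe, Clu, Lrp1, Picalm and Ece2 cross 0.

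Other genes of the same routes were read from 4 lists, which held 129 genes without the 10, of which 123 were tested. In the quasi-likelihood test 0 had a raw p of 0.01 or less, against 0.321% of all genes, and 0 an adjusted p under 0.05. At a raw p under 0.05 there were 5 genes (4.07%), against 3.19% of all genes, with 1 higher and 4 lower in KD (1.66% and 1.52% of all genes). In DESeq2 there were 2 at a raw p under 0.05 and 0 at 0.01. The count of 5 rested on single libraries: it was 1 without CD replicate 1, 2 without CD replicate 2, 9 without CD replicate 3, 2 without CD replicate 4, 3 without KD replicate 1 and 3 without KD replicate 3, while the share of all genes ran from 1.63% to 7.38% (without CD replicates 1 and 3), and with the replicate block it was 7, against 5.89% of all genes. The median log2 fold change of the 123 was 0.02.

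Among proteases that can cut amyloid-β and their inhibitors, 24 of 26 were tested, 10 with a log2 fold change above 0 and 14 below, with a median of -0.03. Ecel1, a neuronal relative of the endothelin-converting enzymes, had 1.48, 0.803, 1.71 and 1.31 CPM in CD and 0.898, 0.882 and 37.9 CPM in KD. Its log2 fold change of 3.29 (SE 1.19, adjusted p 0.979 in the quasi-likelihood test) rested on KD replicate 3, without which it was -0.55, and with the replicate block it was 1.59 (SE 1.29). The most abundant of the list were the lysosomal cathepsins Ctsd (807 ± 143 CPM in CD) and Ctsb (673 ± 65.8 CPM) and the protease inhibitor Serpini1 (703 ± 105 CPM), with log2 fold changes of 0.15 (SE 0.21), -0.05 (SE 0.14) and -0.25 (SE 0.17).

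Of 33 genes for lipoproteins, their receptors and transport out of the brain, 17 were above 0 and 16 below, and 3 were lower in KD at a raw p under 0.05, none at 0.01. Apod, a lipocalin of glia and fibroblasts, had 188, 232, 126 and 510 CPM in CD and 161, 113 and 109 CPM in KD, a log2 fold change of -1.02 (SE 0.42). It was highest in CD replicate 4, the library with the most meningeal marker RNA, and its log2 fold change was -0.52 without that library and -0.49 with the replicate block. Nr1h2 and Rxra code for partners of a nuclear receptor pair that responds to oxysterols and is known to drive transcription of Apoe. Nr1h2 had 13.5, 12.2, 11.1 and 13.7 CPM in CD and 9.41, 11.5 and 7.95 CPM in KD, a log2 fold change of -0.37 (SE 0.16). Rxra had 45.5, 42.4, 34.1 and 53.4 CPM in CD and 34.4, 32.1 and 36.0 CPM in KD, a log2 fold change of -0.35 (SE 0.14), or -0.25 (SE 0.12) with the replicate block, where it no longer passed a raw p of 0.05. Each of these 3 genes overlapped between diets and had an adjusted p of 0.979 in the quasi-likelihood test. The most abundant others of the list, the sorting receptor Sort1 and the receptor Lrp1b, had log2 fold changes of -0.13 (SE 0.10) and 0.33 (SE 0.18).

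In clathrin endocytosis and retromer, the machinery that Bin1, Picalm and Sorl1 work with, all 36 genes were tested and lay within a narrow band, from -0.22 to 0.21. Only Cltb, a clathrin light chain, had a raw p under 0.05, with 103, 98.1, 81.8 and 95.5 CPM in CD and 81.1, 82.5 and 78.0 CPM in KD, a log2 fold change of -0.22 (SE 0.10, adjusted p 0.979 in the quasi-likelihood test). The clathrin heavy chain Cltc, at 1434 ± 112 CPM in CD, had 0.08 (SE 0.09), the adaptor subunit Ap2b1 0.04 (SE 0.11) and the dynamin Dnm1 -0.17 (SE 0.09). Dnm1 and Ap2a1 were lower in every KD library than in every CD library, and of all 123 genes only these and Grn did not overlap, against 4.2% of all genes.

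Of 36 other risk genes, 32 were in the tables and tested, with a median log2 fold change of 0.08, 20 above 0 and none at a raw p under 0.05. Grn, the lysosomal growth factor progranulin, was the only one whose diets did not overlap, against 4.2% of all genes. Its means were 51.8 CPM in CD and 60.1 CPM in KD, with a log2 fold change of 0.22 (SE 0.10). The gap was narrow, from 53.47 CPM in CD replicate 3 to 53.72 CPM in KD replicate 2, and KD replicate 1 was highest at 69.45 CPM. The most abundant were the transcription factor Mef2c (0.03, SE 0.24), the kinase Ptk2b (0.14, SE 0.20) and the lysosomal membrane protein Tmem106b (0.15, SE 0.09). Several of the risk genes are known to be microglial. The sum over 15 microglia markers, Csf1r among them, was 551 to 944 CPM in CD and 728 to 1093 CPM in KD. Of the 15, 13 were above 0, where 49% of all tested genes were. Csf1r and Itgam had a raw p under 0.05 in the quasi-likelihood test, with log2 fold changes of 0.35 (SE 0.15) and 0.47 (SE 0.16). Of all genes 3.19% passed that threshold, 1.66% higher in KD, and neither gene passed after adjustment. Itgam alone of the 15 did not overlap between diets (25.0 to 35.8 CPM in CD, 38.1 to 50.8 CPM in KD), against 4.2% of all genes, 1.64% with KD higher. Both were named after their values were seen. The part of this list in the values of the risk genes was not tested.

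**Figure D4:**
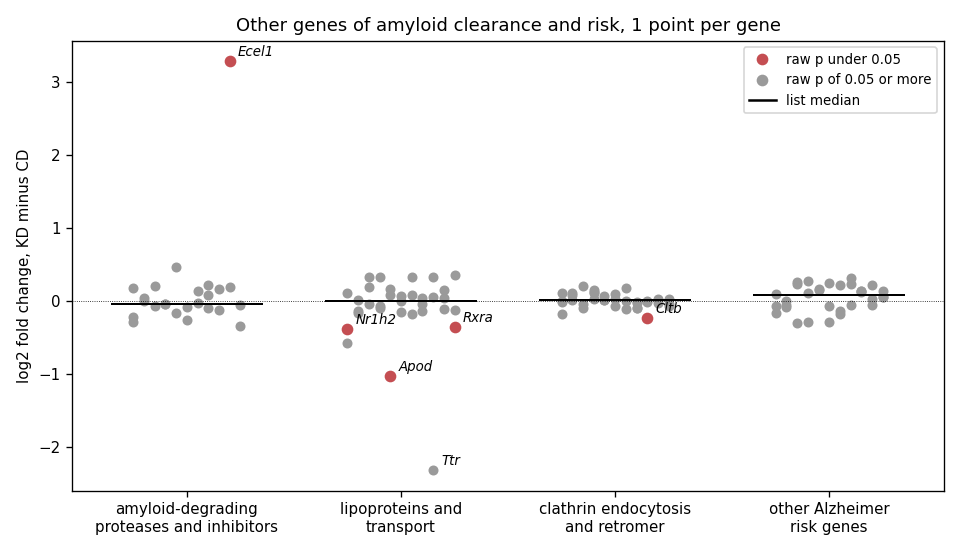
Log2 fold change, KD minus CD, of each tested gene in the 4 lists, 1 point per gene, with red for a raw p under 0.05 and the black line for the list median. The medians lie between -0.03 and 0.08, and the choroid plexus transcript Ttr, the lowest point at -2.31, had 425 CPM in CD replicate 1 and 5.69 to 45.4 CPM in the other 6 libraries.

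Read library by library, the 10 genes and the marker lists departed from their CD means in different libraries. On the log2(CPM + 0.5) scale Mme was at -0.65, -0.61 and -0.58 in the KD libraries, Ide reached -0.92 and Ece2 1.12 in KD replicate 3, and Picalm stayed between -0.12 and 0.15. The oligodendrocyte list was at -1.31 in CD replicate 3 and -1.37 in KD replicate 3, and the olfactory bulb list, led by Slc17a6 and Calb2, at 1.73 in CD replicate 4. The choroid plexus list, led by Ttr and Kl, ran from 13.5 to 473 CPM in CD and from 29.7 to 51.1 CPM in KD. The mean over the parvalbumin interneuron list was below its CD mean in all 3 KD libraries, at -0.25, -0.29 and -0.73.

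**Figure D5:**
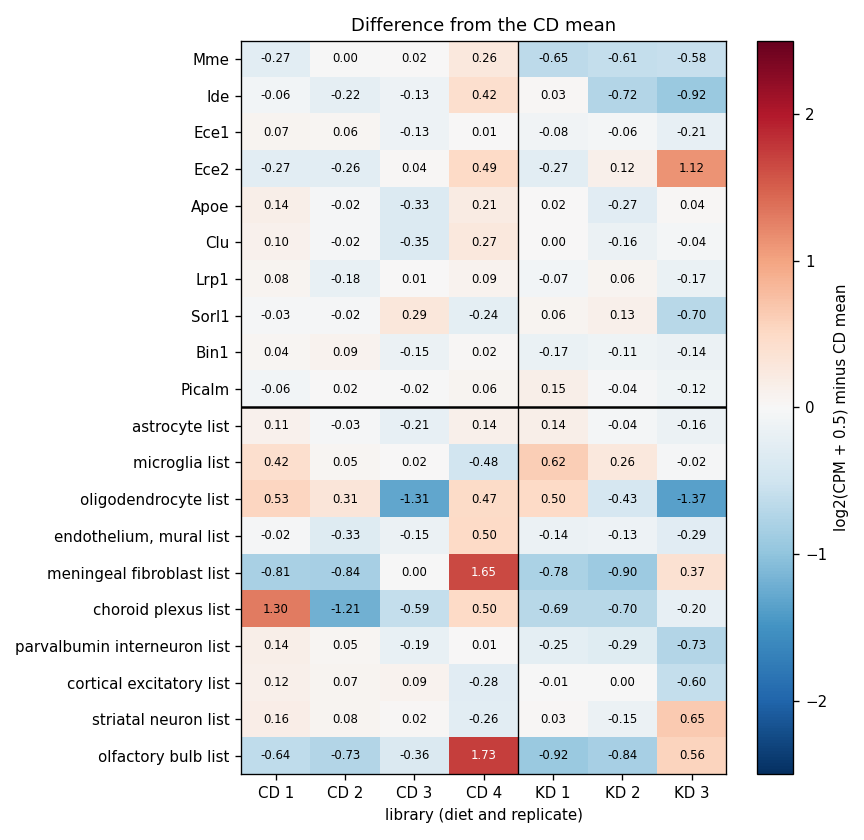
Difference of each gene (upper rows) and of the mean over each marker list (lower rows) from the mean of the CD libraries, in log2(CPM + 0.5), for each library, with red for higher and blue for lower. Mme is lower in all 3 KD libraries, and KD replicate 3 departs in Ide (-0.92), Ece2 (1.12) and Sorl1 (-0.70).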

How the data were processed

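The cortex of 7 APP/PS1 mice (4 CD, 3 KD) was measured by stranded total RNA-seq. The authors used STAR both to align reads to mm10 and, through its HTSeq implementation, to obtain gene counts, and they deposited those raw counts by gene symbol, 1 mouse per table and not normalized. For these tools no version, gene annotation or strand setting is given in the sources used here. Diet and replicate were taken from the sample titles.

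CPM was the count over the library total, from 22272883 to 36614954. KD was compared with CD in edgeR 4.0.16 (R 4.3.3) by filterByExpr, TMM, estimateDisp, glmQLFit with robust fitting and glmQLFTest without covariates, over 15881 genes, with Benjamini-Hochberg adjustment over all of them. The study names edgeR, TMM and a raw p threshold of 0.01. The 10 genes and all gene lists were chosen with earlier results of these data known. Named genes were the 10, from each pathway list those with a raw p under 0.05 and the 3 most abundant, the 5 nearest to Mme, and the 2 most abundant of each marker list, some of which are not reported here. Marker genes with a raw p under 0.05, Ttr, Grn, Ap2a1, Xlr4a, Kdm5d and the genes like Ece2, Ide and Clu were named after their values were seen. So were Tac1, Lhx6, Pvalb, Kcnc2, Erbb4, Neurod6, Bcl11b, Foxp2, Trh, Cdhr1, Sp8, Dlx1, Eomes, Tbx21, Doc2g and Ddx3y. Coordinates and exon lengths are from GENCODE M21 and promoters from RefSeq (GRCm38.p6), the same assembly as mm10. Alternatives were RLE, library size alone, 2 other filters, DESeq2 1.42.0, the likelihood-ratio test, Xist as covariate, a replicate block and leaving out libraries.

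Same-numbered libraries deviated together from their group means, with correlations over genes of 0.309, 0.234 and 0.131 in log2(CPM + 0.5) and 0.251, 0.195 and 0.098 in edgeR's log2 CPM. Unlike-numbered libraries reached the same size: CD replicate 4 with KD replicate 3 had 0.307 and 0.308, and CD replicate 1 with KD replicate 2 had 0.232 and 0.209. The other unlike-numbered pairs lay at 0.0855 or less. The labels do not say what a shared number marks, and same-numbered libraries also shared sex by Xist and Ddx3y. The pairing comes from the data alone, its last value depends on the scale, and it is not set apart from unlike-numbered pairs. The values with the replicate block, which uses CD and KD replicates 1 to 3 and so also leaves out CD replicate 4, are given in the closing section. Counts of replicates were far apart relative to sampling noise, with a chi-square of 16.1 to 68.3 per gene, and each library was counted as a sample of its own. Each library is labelled as a mouse of its own.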

Additional observations from a re-analysis of the deposited data

Results flagged for a closer look

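In the CD group 36 values (the named genes and the summed marker lists) were screened for a library lying apart from the other 3, by the gap to the nearest library over the whole range. Of these, 4 passed Dixon's critical value for 4 samples, where chance gives about 1.8, and all 4 were marker lists, none of the 10 genes. The values share libraries. CD replicate 3 was low in the oligodendrocyte markers (1285 CPM against 4244 to 4808, gap over range 0.84), and Bin1 was also lowest there, at 144 CPM. CD replicate 4 was high in the meningeal markers (449 CPM against 73.5 to 133, 0.842) and in the olfactory bulb markers (297 CPM against 66.0 to 71.0, 0.979), and Mme, Ide, Ece2, Apoe, Clu, Lrp1 and Picalm were also highest of the CD libraries there. CD replicate 1 was high in the choroid plexus markers (473 CPM against 13.5 to 87.2, 0.839), and Mme was lowest of the CD libraries there, at 8.12 CPM. Nearest to the critical value among the 10 genes was Ide, with 0.798, from 156 CPM in CD replicate 4.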

How the results depend on the processing

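The count of 51 genes at a raw p of 0.01 or less became 120 with DESeq2, 103 with the likelihood-ratio test, 227 with Xist as covariate and 182 with the replicate block, and with single replicates left out it lay between 19 (CD replicate 1 out) and 211 (CD replicate 3 out). The count was 31 without CD replicate 2, 33 without CD replicate 4, 33 without KD replicate 3 and 96 without KD replicate 2. An adjusted p under 0.05 was reached by 1 gene, Xlr4a, with the likelihood-ratio test and by 1 gene, Kdm5d, with Xist as covariate, and by 0 in the other alternatives. The count of pathway genes at a raw p of 0.01 or less, 0 at first, was 1 with the likelihood-ratio test (Ecel1) and from 0 to 2 without 1 replicate, among them Apod and Rxra without CD replicate 3, and Ecel1 without KD replicate 1 and without KD replicate 2. At a raw p under 0.05 the pathway count of 5 was 7 with the replicate block, where Ecel1 (1.59, raw p 0.281 in edgeR) and Rxra (-0.25, raw p 0.078) no longer passed and Dnm1 (-0.20, raw p 0.0487) did, and Apod was at -0.49. With the block Mme was at -0.57, Ide -0.41, Sorl1 -0.25, Apoe -0.0102, Clu 0.0172, Lrp1b 0.22, Ctsb -0.138 and Ctsd 0.00211, and it changed no call at a raw p of 0.01 or at an adjusted p of 0.05 on the genes named. Genes that changed sign were Mef2c (-0.0595 with Xist, -0.15 with the replicate block, -0.14 to 0.23 without 1 replicate), Ptk2b (-0.0149 with the block, -0.00983 to 0.30 without 1 replicate), Ap2b1 (-0.0304 to 0.104), Ctsd (-0.0529 to 0.340), Ctsb (-0.157 to 0.0808) and Ecel1 (-0.55 to 3.85). Without CD replicate 4 and KD replicate 3 together, chosen after seeing the data, Ecel1 was at -0.57, Ctsb 0.0160, Serpini1 0.00733 (-0.400 to -0.0787 without 1 replicate), Ap2b1 -0.0065 and Ptk2b -0.14. The cause of these shifts was not tested. Depth limits Mme most, with 143 to 438 counts per library.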

Other observations

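The genes nearest in pattern to the members that varied most were looked up after the values were seen, by the same root mean square difference over 7 libraries. For Ece2 the nearest was Dner, a Notch ligand of neurons, with 138, 138, 176 and 236 CPM in CD and 130, 179 and 318 CPM in KD. It differed from Ece2 by 0.0708, where the SD of Ece2 was 0.513, and both were highest in KD replicate 3 and next in CD replicate 4. For Ide the nearest were 1700028P14Rik (0.102), Mecom (0.14) and Pde4a (0.141), where the SD of Ide was 0.456. Fezf2, a transcription factor of deep-layer cortical neurons, ranked 4 (0.144). It had 13.9, 15.9, 16.0 and 18.6 CPM in CD and 16.6, 10.6 and 7.95 CPM in KD. Ide and Fezf2 were both lowest in KD replicate 3 and highest in CD replicate 4. Other cortical excitatory markers differed. Neurod6 had the same extremes, whereas Bcl11b was highest in KD replicate 3 (112 CPM) and Foxp2 lowest in CD replicate 4 (13.3 CPM).

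For Clu the nearest was Pla2g7, a lipoprotein-associated phospholipase, with 130, 113, 90.1 and 141 CPM in CD and 120, 109 and 115 CPM in KD, at 0.0296 where the SD of Clu was 0.193. Like Clu and Apoe it was lowest in CD replicate 3 and highest in CD replicate 4. None of the 5 nearest genes of any member was itself one of the 10.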
